A study of Mus musculus with 46 samples.

Results

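The genes described here are the nuclear genes of oxidative phosphorylation, taken as mouse gene symbols of the Nduf (a, b, c, s and v), Uqcr, Cox4 to Cox8 and Atp5 series. Symbols ending in -ps were left out, and a gene needed at least 50 counts summed over the actinomycin D table. The rule found 80 of the 21812 genes: 39 of complex I, 8 of complex III, 16 of complex IV and 17 of complex V. Of 83 matching symbols, Cox5b-ps was left out by its name, and Cox6a2 (28 counts) and Cox8b (0 counts) lay under the minimum. The members nearest above it were Cox8c with 108 counts and Cox7b2 with 136. Complexes follow the symbols, so Ndufa4, which copurifies with complex I but is now placed in complex IV, is counted with complex I, as is its relative Ndufa4l2. Complex II has no member by the rule.

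RNA was sequenced in 46 libraries of mouse EPSCs, pluripotent stem cells with a broad developmental potential, and of cells made from them in 19 groups. The stated questions were the transcriptomes of these states and RNA stability, and the title of the series names N6-methyladenosine (m6A), a modification of mRNA. EPSCs (EPS) and cells in a medium that induces primitive endoderm (PrEdiff) received actinomycin D, a blocker of transcription, for 0, 1, 2 or 3 h (2 libraries each), and a separate EPSC table held 2 more libraries. Induced cultures gave CD140+ cells (PrE-E) and CD140- cells (EPI-E), with 2 libraries each, and embryoids of EPSCs and GBL-1 cells gave VE and EPI parts (the usual short forms of visceral endoderm and epiblast), with 6 libraries each, separated with pronase E after 5 days. The perturbed cells were all in the inducing medium, with 2 libraries a group: Virma wild type (WT) and conditional knockout (cKO), Mettl3 WT and cKO, and cells given a control siRNA (siNC) or an siRNA against Igf2bp3. Virma and Mettl3 are subunits of the complex that writes m6A, and Igf2bp3 is a reader protein of m6A. What GBL-1 stands for, the Cre behind the knockouts, the number of clones and the days of induction were not given.

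Oxidative phosphorylation takes electrons from NADH at complex I, passes them through ubiquinone to complex III and by cytochrome c to complex IV, where oxygen is reduced. The proton gradient made on the way drives the ATP synthase, complex V. Most subunits are encoded in the nucleus and imported, while a few core subunits come from mitochondrial DNA. Pluripotent cells are known to lean on glycolysis, and the balance shifts as cells leave pluripotency.

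The libraries held from 6854433 to 22280769 counts. Between libraries of 1 group, chi-square per degree of freedom lay between 1.19 and 1.30 under actinomycin D and between 1.584 and 20.009 elsewhere. The labels name no separate cultures, so p-values measure the spread between these libraries, which may be technical. Under actinomycin D this spread was little above counting noise. The p-values of slopes also take in departure from a straight line. The 6 primitive endoderm markers summed to 0.480 and 0.481% of counts in PrE-E, 0.00126 and 0.00162% in EPI-E, 0.0885 and 0.0892% in PrEdiff at 0 h, and 0.00251 and 0.00275% in EPS at 0 h. Visceral endoderm markers made up 0.853 to 0.888% of embryoid VE counts and 0.0178 to 0.0266% of embryoid EPI counts. The labels and the markers thus go together as endoderm against epiblast. The visceral endoderm sum does not set VE apart from PrE-E, where Cubn and Lrp2 of this list were also high. Ttr and Apoa1 of the list were far higher in embryoid VE than in PrE-E. The Virma transcript was lower in cKO (log2 change -0.82 ± 0.12, SE). Mettl3 RNA differed by -0.02 ± 0.11 between the libraries labelled Mettl3 cKO and WT, and Igf2bp3 RNA by 0.11 ± 0.11 between those labelled siIgf2bp3 and siNC. Neither passed the test (adjusted p = 0.978 and 0.577), and which part of Mettl3 was deleted was not given, so these directions rest on the labels.

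The set took between 0.828% of counts, in a Virma cKO library, and 3.03%, in an embryoid VE library. EPS held 1.39 and 1.40% at 0 h, and PrEdiff held 1.28 and 1.27%. PrE-E held 1.05 and 1.08%, against 0.852 and 0.849% in EPI-E. Embryoid VE ran from 2.69 to 3.03% (median 2.82%), above all 6 embryoid EPI libraries, which ran from 2.37 to 2.58% (median 2.50%). The share thus lay lower in the induced culture than in EPS, and higher in sorted or dissected endoderm than in its epiblast counterpart. The EPSC table gave 0.888 and 0.894% for the same kind of cell as EPS at 0 h. Levels set across tables differ by table as well as by cell, and the labels name a pair of library kits without saying which made which table.

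**Figure D1:**
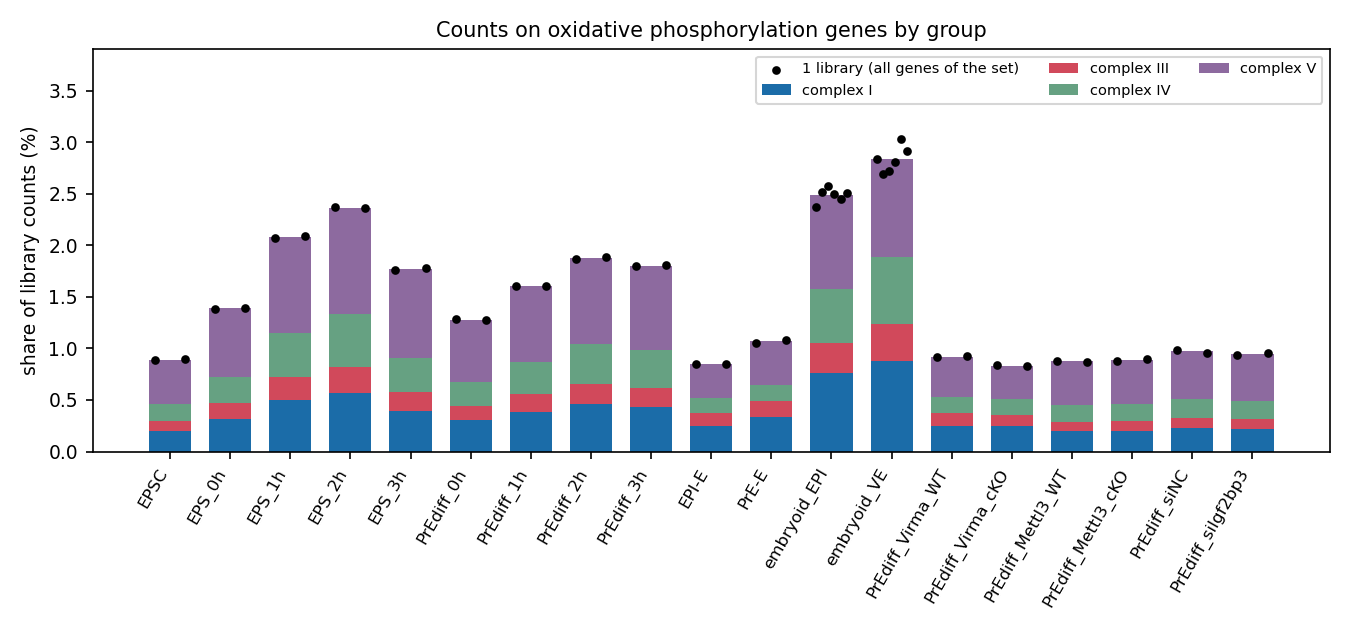
Share of library counts (%) on the 80 genes in each of 19 groups; bars stack the group means of complexes I, III, IV and V, and each point is the total of 1 library. The embryoid VE libraries are the highest, at 2.69 to 3.03%, and the EPS libraries at 2 h, at 2.36 and 2.37%, lie beside the lowest embryoid EPI library.

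At 0 h in EPS, the ATP synthase subunits had the highest levels once counts were divided by transcript length. CPM here are counts scaled to library totals corrected by TMM factors, not to the plain totals. Atp5b, the catalytic beta subunit, stood at 933 CPM per kb. Atp5a1, the alpha subunit, followed at 555, and Cox7c, a small complex IV subunit, at 553. Median levels per kb were 71.2 for complex I, 195 for complex III, 204 for complex IV and 269 for complex V, over the 76 members with a matched transcript. The complexes overlapped widely, with complex I members running from 0.399 to 265 and complex V members from 29.2 to 933. The lowest of complex V was Atp5g1, whose matched transcript has 4715 bases, 4255 of them 3′ UTR. Ndufb2 of complex I likewise has 4371 bases, 4015 of them 3′ UTR. Such levels rest on the transcript model used.

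Comparing PrEdiff with EPS at 0 h asks how the set differs between the induced culture and its starting cells. Most of it was lower: by edgeR's quasi-likelihood test at an adjusted p of 0.05, 65 of 80 members fell and 9 rose. In this comparison 80.5% of all tested genes were called, 42.9% lower and 37.6% higher, so a call as such says little, and the direction and size carry the description. The members' median log2 change was -0.33, against -0.05 over all tested genes. By complex, 31 of 39 complex I genes fell and 4 rose (median -0.28), 6 of 8 complex III genes fell and 2 rose (-0.51), 11 of 16 complex IV genes fell and 3 rose (-0.25), and all 17 complex V genes fell (-0.47), 3 of which rose with library totals. When libraries were scaled to their total counts, 49 members fell and 19 rose, and scaling to ribosomal protein genes gave 53 and 13; the median of all genes then moved to 0.13 and 0.06, and that of the members to -0.15 and -0.22.

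Complex I begins the chain. Its NADH-binding core subunit Ndufv1 stood at 149 and 151 CPM in EPS and at 105 and 101 CPM in PrEdiff, a log2 change of -0.54 ± 0.03. The iron-sulfur core subunit Ndufs1 stood at 162 and 157 CPM against 130 and 131 CPM (-0.28 ± 0.03). The groups did not overlap for either gene. Against this, the accessory subunit genes Ndufv3 and Ndufa8 rose. Ndufv3 went from 37.3 and 35.9 CPM to 64.9 and 54.7 CPM (0.71 ± 0.05), and Ndufa8 from 52.2 and 55.3 to 61.2 and 63.3 CPM (0.22 ± 0.04). Both PrEdiff libraries lay above both EPS libraries.

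The largest fall of the set was that of Uqcrq, a small subunit of complex III, from 106 and 113 CPM in EPS to 45.2 and 45.9 CPM in PrEdiff (log2 change -1.26 ± 0.04, adjusted p = 4.95e-95). Uqcrfs1, the Rieske iron-sulfur protein, went from 147 and 147 to 99.5 and 98.5 CPM (-0.56 ± 0.03), and the core protein gene Uqcrc1 from 321 and 329 to 237 and 236 CPM (-0.45 ± 0.02). In complex IV, Cox5a went from 245 and 258 to 186 and 183 CPM (-0.44 ± 0.03). No PrEdiff library reached an EPS library for these 4 genes.

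Complex V genes of the catalytic head, the stalk and the membrane part all fell with the TMM scaling used here, though the 3 smallest falls turned with other scalings. Atp5b stood at 1793 and 1781 CPM in EPS and at 1485 and 1454 CPM in PrEdiff (-0.28 ± 0.02), and Atp5a1 at 1376 and 1368 against 1124 and 1144 CPM (-0.27 ± 0.02). The largest falls of the complex were those of Atp5k, Atp5g1 and Atp5j, and the smallest those of Atp5mpl (-0.10 ± 0.04), Atp5c1 (-0.11 ± 0.02) and Atp5pb (-0.11 ± 0.02). Scaled to library totals these 3 rose, by 0.08, 0.07 and 0.07, and scaled to ribosomal protein genes they stood at 0.01, 0.00 and 0.00 without passing the test. The fall of Atp5mpl also missed the test without EPS 0 h replicate 2 (adjusted p = 0.256), without PrEdiff 0 h replicate 1 (adjusted p = 0.117) and in a fit of the 0 h libraries alone (-0.04, adjusted p = 0.330). Atp5j, coupling factor 6, went from 215 and 220 to 125 and 122 CPM (-0.81 ± 0.03), and Atp5k, subunit e, from 72.8 and 78.4 to 41.8 and 38.2 CPM (-0.91 ± 0.05). The groups did not overlap for Atp5b, Atp5a1, Atp5j or Atp5k.

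The c subunit of the membrane ring shows how members of 1 role can differ. Atp5g1, Atp5g2 and Atp5g3 encode precursors of the same mature protein, with different import sequences. Atp5g1 went from 137 and 138 CPM to 73.4 and 72.5 CPM (-0.91 ± 0.04), Atp5g3 from 359 and 369 to 260 and 265 CPM (-0.47 ± 0.02), and Atp5g2 from 106 and 108 to 96.2 and 92.1 CPM (-0.18 ± 0.03). The fall of Atp5g2 rested on the scaling, with a log2 change of 0.00 when libraries were scaled to total counts. Their promoters are printed because a shared product with unequal changes makes the sequences worth comparing. Each window of the RefSeq table runs from 250 bases before the start to 50 after it (build GRCm38.p6). They are chr11:96075582-96075881 for Atp5g1, chr15:102670998-102671297 for Atp5g2 and chr2:73911277-73911576 for Atp5g3, all on the minus strand and written 5′ to 3′. Capitals mark 4 searched motifs on either strand: the NRF1 palindrome (NRF1 is a regulator of respiratory genes), CCGGAAG (ETS factors), AAGATGGC (YY1) and ACGTG (the core of hypoxia response elements, read CACGT on the other strand and on both in CACGTG).
Atp5g1: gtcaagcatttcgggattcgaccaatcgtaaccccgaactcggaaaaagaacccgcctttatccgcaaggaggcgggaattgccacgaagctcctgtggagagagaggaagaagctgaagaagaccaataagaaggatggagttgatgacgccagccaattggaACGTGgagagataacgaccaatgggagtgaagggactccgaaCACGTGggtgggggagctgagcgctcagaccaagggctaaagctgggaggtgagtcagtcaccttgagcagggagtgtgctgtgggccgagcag
Atp5g2: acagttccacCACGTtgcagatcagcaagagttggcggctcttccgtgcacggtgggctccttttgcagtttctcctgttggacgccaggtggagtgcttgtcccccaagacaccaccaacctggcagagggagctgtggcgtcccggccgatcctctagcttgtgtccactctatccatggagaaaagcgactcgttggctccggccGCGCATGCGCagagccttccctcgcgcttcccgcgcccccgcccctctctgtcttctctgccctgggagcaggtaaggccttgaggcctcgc
Atp5g3: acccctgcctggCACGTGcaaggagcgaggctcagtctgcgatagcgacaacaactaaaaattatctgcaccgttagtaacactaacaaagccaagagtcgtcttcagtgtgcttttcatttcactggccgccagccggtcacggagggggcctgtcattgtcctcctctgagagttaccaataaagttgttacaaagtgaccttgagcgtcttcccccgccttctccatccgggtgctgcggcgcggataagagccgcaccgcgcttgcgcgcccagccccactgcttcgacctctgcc
Only the Atp5g2 window of these 3 held the NRF1 letters, once, and ACGTG occurred 3 times in Atp5g1, once in Atp5g2 and 2 times in Atp5g3, counting both strands. Over the 70 windows of 65 matched members, the NRF1 letters occurred in 7.1%, against 1.0% of all 32851 windows. The ETS letters occurred in 21.4 against 8.9%, those of YY1 in 14.3 against 2.7%, and ACGTG in 24.3 against 19.6%. These are matches of letters, not binding sites.

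The members that went against the fall in PrEdiff included genes for isoforms that replace or resemble a broadly expressed subunit. Ndufa4l2, known from other cells as a hypoxia-induced relative of Ndufa4, had 8 and 8 counts in EPS (0.380 and 0.366 CPM) and 441 and 437 counts in PrEdiff (23.4 and 22.7 CPM). Its log2 change was 5.59 ± 0.17 (adjusted p = 5.29e-109), while Ndufa4 itself went from 136 and 139 to 116 and 114 CPM (-0.25 ± 0.03). Cox4i2, the isoform of subunit 4 linked to low oxygen, had 4 and 4 counts in EPS and 52 and 45 in PrEdiff (3.17 ± 0.32), and its common form Cox4i1 went from 392 and 396 to 316 and 312 CPM (-0.32 ± 0.02). At 2.76 and 2.34 CPM in PrEdiff, Cox4i2 remained far below Cox4i1. For both pairs the isoform and the common form moved in opposite directions, and no groups overlapped. Control groups of the perturbed cells, also in the inducing medium, differed in level. Ndufa4l2 stood at 0.201 and 0.348 CPM in Virma WT, 0.829 and 0.396 CPM in Mettl3 WT, and 26.0 and 13.7 CPM in siNC. Cox4i2 stood at 0.603 and 1.13, 0.497 and 0.396, and 3.95 and 5.01 CPM in the same order. The rise is thus shown only for the induced culture of the actinomycin D libraries.

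Cox7a1, the isoform of subunit 7a best known from heart and muscle, rose from 6.40 and 4.67 CPM to 22.9 and 19.9 CPM (1.94 ± 0.10). Cox7a2, the broadly expressed form, went from 174 and 169 to 136 and 132 CPM (-0.35 ± 0.03). Cox6b2, an isoform best known from testis, rose less, from 22.0 and 22.5 to 27.6 and 26.0 CPM (0.27 ± 0.07). Not all isoform or copy genes rose: Cox7b2 and Ndufb11b were called lower, and Cox8c was not called. Cox7b2 had 7 and 17 counts in EPS and 4 and 3 in PrEdiff. The Cox7a promoters are printed as those of 1 isoform pair that moved apart, at chr7:30183921-30184220 on the plus strand (Cox7a1) and chr9:79759804-79760103 on the minus strand (Cox7a2), with capitals as above.
Cox7a1: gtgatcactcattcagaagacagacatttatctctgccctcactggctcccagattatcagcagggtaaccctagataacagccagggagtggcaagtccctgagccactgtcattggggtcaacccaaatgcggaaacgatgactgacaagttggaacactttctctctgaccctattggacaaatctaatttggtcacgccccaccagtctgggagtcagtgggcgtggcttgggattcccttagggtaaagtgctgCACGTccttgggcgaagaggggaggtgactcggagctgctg
Cox7a2: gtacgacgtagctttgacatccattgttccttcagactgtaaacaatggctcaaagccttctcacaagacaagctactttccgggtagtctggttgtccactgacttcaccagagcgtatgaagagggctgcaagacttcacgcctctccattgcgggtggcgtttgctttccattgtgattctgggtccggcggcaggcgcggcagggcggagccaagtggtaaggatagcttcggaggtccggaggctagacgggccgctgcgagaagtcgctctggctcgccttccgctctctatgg
Of the 4 motifs, ACGTG occurred once in the Cox7a1 window, and none of the 4 in that of Cox7a2. The windows have a GC content of 53.0 and 56.7%.

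Other genes of energy metabolism, from lists fixed for this tissue, differed in direction. Of 18 glycolysis genes, 15 rose and 3 fell (median 0.99), among them the phosphoglycerate kinase gene Pgk1 (1.99 ± 0.02) and the glucose transporter genes Slc2a1 (1.94 ± 0.03) and Slc2a3 (1.94 ± 0.02). Of 77 mitochondrial ribosomal protein genes, 72 fell and 3 rose (median -0.56). Of the 13 subunits encoded by mitochondrial DNA, 6 rose and 6 fell. Among complex II genes, 3 of 4 fell and 1 rose, and of 16 citric acid cycle genes 9 fell and 6 rose (median -0.14). Epiblast markers also fell (7 of 7), from 0.271 and 0.273% of counts to 0.0819 and 0.0831%, and of 10 fibroblast markers 8 fell and 1 rose (median -0.75), from 0.0308 and 0.0307% to 0.0175 and 0.0172%. In bulk RNA, fewer cells of a type and less RNA per cell cannot be told apart, and the part of cell makeup in these changes was not tested.

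The sorted cells ask how endoderm and epiblast-like cells of the same induced culture differ. Here the set leaned the other way: of 76 members tested, 49 rose and 3 fell in PrE-E, where 57.7% of all tested genes were called (28.3% higher, 29.5% lower). Their median log2 change was 0.44, against -0.03 over all tested genes. Complex III had 7 of 8 higher and 1 lower, complex V 14 of 17 higher and none lower, complex I 22 of 38 higher and 1 lower, and complex IV 6 of 13 higher and 1 lower, with a complex IV median of 0.05. Cox4i2, Cox7b2, Cox8c and Ndufa4l2 had too few counts to be tested.

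Complex IV held both the largest rises and a clear fall. Cox6b1, a subunit facing the intermembrane space, stood at 88.3 and 79.8 CPM in PrE-E and at 32.4 and 34.4 CPM in EPI-E (1.34 ± 0.14). Cox6a1 stood at 42.4 and 65.3 against 24.2 and 15.3 CPM (1.45 ± 0.25), and Cox5a at 48.7 and 44.5 against 20.9 and 24.2 CPM (1.05 ± 0.18). All 3 were separate between the groups, though Cox6a1 varied most within them. Cox7c went the other way, at 61.2 and 72.7 CPM in PrE-E and 132 and 138 CPM in EPI-E (-0.997 ± 0.115). Cox4i1 stood at 236 and 196 against 142 and 125 CPM (0.71 ± 0.11).

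In complex I, Ndufa13, a subunit also known as GRIM-19, stood at 438 and 375 CPM in PrE-E and 218 and 231 CPM in EPI-E (0.87 ± 0.09), and Ndufb7, an accessory subunit, at 187 and 210 against 107 and 109 CPM (0.88 ± 0.09). Ndufa4 stood at 51.8 and 59.6 against 32.7 and 31.1 CPM (0.81 ± 0.16). The 1 fall was that of Ndufb11b, a gene named as a copy of Ndufb11, with 7 and 1 counts in PrE-E and 82 and 117 in EPI-E (-4.08 ± 0.78). Reads of such a copy may be shared with Ndufb11, so its level is uncertain.

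In complex III, Uqcrfs1 stood at 73.6 and 58.7 against 37.2 and 38.0 CPM (0.83 ± 0.16) and Uqcrc1 at 350 and 365 against 278 and 243 CPM (0.47 ± 0.08). Uqcrh, the hinge protein, was the 1 member of complex III that fell, at 62.9 and 67.6 against 80.1 and 90.5 CPM (-0.37 ± 0.13, adjusted p = 0.0217). Without EPI-E replicate 2 its adjusted p was 0.164, and without PrE-E replicate 1 it was 0.0674. In complex V, Atp5mpl, a small proteolipid, stood at 520 and 607 against 299 and 325 CPM (0.86 ± 0.07), Atp5b at 469 and 477 against 396 and 408 CPM (0.25 ± 0.06), and Atp5g3 at 34.99 and 34.88 against 24.0 and 21.6 CPM (0.63 ± 0.19). Atp5a1 stood at 801 and 803 against 675 and 719 CPM (0.21 ± 0.05). Without EPI-E replicate 2 the adjusted p of Atp5g3 was 0.0621, and without EPI-E replicate 1 that of Atp5a1 was 0.0756.

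Beside the nuclear genes, 6 of 9 tested subunits encoded by mitochondrial DNA rose and none fell (median 0.62), while 9 of 18 glycolysis genes fell and 4 rose (median -0.37). Scaling to ribosomal protein genes, of which 58 of 85 fell here, gave 57 members higher and 2 lower, and scaling to library totals gave 39 and 5. The median of all genes moved to 0.23 and -0.11 with these scalings, and that of the members to 0.70 and 0.36. Fibroblast markers were also higher in PrE-E, at 0.0371 and 0.0372% of counts against 0.0185 and 0.0179%, and their part was not tested.

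The embryoid parts repeat the contrast of endoderm and epiblast in a structure, with 6 libraries each. Of 79 members tested, 57 rose and 14 fell in VE, where 72.5% of all tested genes were called (34.5% higher, 38.0% lower). The median log2 change was 0.37, against -0.05 over all tested genes. By complex, 26 of 39 complex I genes rose and 6 fell, 7 of 8 complex III genes rose and 1 fell, 10 of 15 complex IV genes rose and 4 fell, and 14 of 17 complex V genes rose and 3 fell. Scaled to ribosomal protein genes, 68 rose and 7 fell. The median of all genes then moved to 0.26 and that of the members to 0.69, and scaling to library totals gave 52 and 15, with medians of -0.14 and 0.29.

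Uqcrfs1 ran from 441 to 492 CPM in VE (median 472) and from 245 to 277 CPM in EPI (median 258), a log2 change of 0.85 ± 0.05. Cox6b1 ran from 639 to 776 CPM (median 690) against 337 to 389 CPM (median 365), a change of 0.94 ± 0.05. Cox5a ran from 913 to 1017 CPM (median 976) against 536 to 637 CPM (median 589), at 0.72 ± 0.04. These complex III and IV genes, which also rose in the sorted PrE-E cells, were higher in every VE library than in any EPI library. Ndufb10, an accessory subunit of complex I, ran from 300 to 358 CPM (median 335) against 168 to 191 CPM (median 177), at 0.90 ± 0.06. Cox6a1 ran from 729 to 907 CPM (median 788) against 483 to 561 CPM (median 508), at 0.63 ± 0.05, and Cox4i1 from 1253 to 1536 CPM (median 1414) against 982 to 1182 CPM (median 1039), at 0.39 ± 0.05.

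Among the members that fell in VE were core subunits of complexes I and V. Atp5b ran from 2012 to 2249 CPM (median 2099) in VE and from 2537 to 2761 CPM (median 2712) in EPI (-0.36 ± 0.03). Ndufv1 ran from 151 to 177 CPM (median 170) against 207 to 256 CPM (median 224), at -0.44 ± 0.06, and Ndufs1 from 151 to 191 CPM (median 170) against 197 to 228 CPM (median 215), at -0.34 ± 0.07. None of these groups overlapped. Scaled to ribosomal protein genes, Atp5b (-0.05), Ndufs1 (-0.02) and Ndufv1 (-0.12) no longer passed the test. Ndufa7, an accessory subunit of complex I, ran from 180 to 263 CPM (median 204) against 326 to 381 CPM (median 355), at -0.74 ± 0.08, and Cox7c from 310 to 404 CPM (median 330) against 480 to 547 CPM (median 532), at -0.64 ± 0.06. Cox7c was thus lower in the endoderm of both systems.

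The 3 genes of the c subunit again went apart. Atp5g3 ran from 231 to 268 CPM (median 258) in VE and from 114 to 145 CPM (median 130) in EPI (0.96 ± 0.07), and Atp5g1 from 600 to 742 CPM (median 665) against 494 to 566 CPM (median 542), at 0.29 ± 0.05. Atp5g2, the one with the NRF1 letters in its window, ran from 147 to 198 CPM (median 186) against 204 to 251 CPM (median 233), at -0.37 ± 0.07. With ribosomal protein scaling its change was -0.06 and did not pass the test.

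The isoform genes did not keep the direction they had in the induced culture. Ndufa4l2 had 0 to 11 counts in VE libraries and 88 to 141 in EPI libraries (-4.23 ± 0.52). Cox4i2 had 0 to 10 against 21 to 40 counts (-2.13 ± 0.67), and Cox6b2 ran from 10.7 to 16.5 CPM (median 14.3) against 29.6 to 45.2 CPM (median 39.0), at -1.46 ± 0.16. All 3 were thus higher in PrEdiff than in EPS but lower in VE than in EPI. In the sorted cells Ndufa4l2 had 0 and 0 counts in PrE-E and 14 and 4 in EPI-E, and Cox4i2 0 and 0 against 2 and 1, too few for a test. Cox7a1 was the exception: it ran from 24.0 to 35.1 CPM (median 27.3) in VE against 6.40 to 17.97 CPM (median 16.15) in EPI, at 0.95 ± 0.21. Cox7a2 ran from 457 to 554 CPM (median 480) against 324 to 387 CPM (median 377), at 0.41 ± 0.06, so in VE both forms of subunit 7a were higher. In the sorted cells Cox7a1 had 14 and 29 counts in PrE-E and 67 and 41 in EPI-E and did not pass the test (-1.28 ± 0.72, adjusted p = 0.148). Ndufb11b had 1 to 12 counts in VE and 60 to 187 in EPI (-3.62 ± 0.39).

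**Figure D2:**
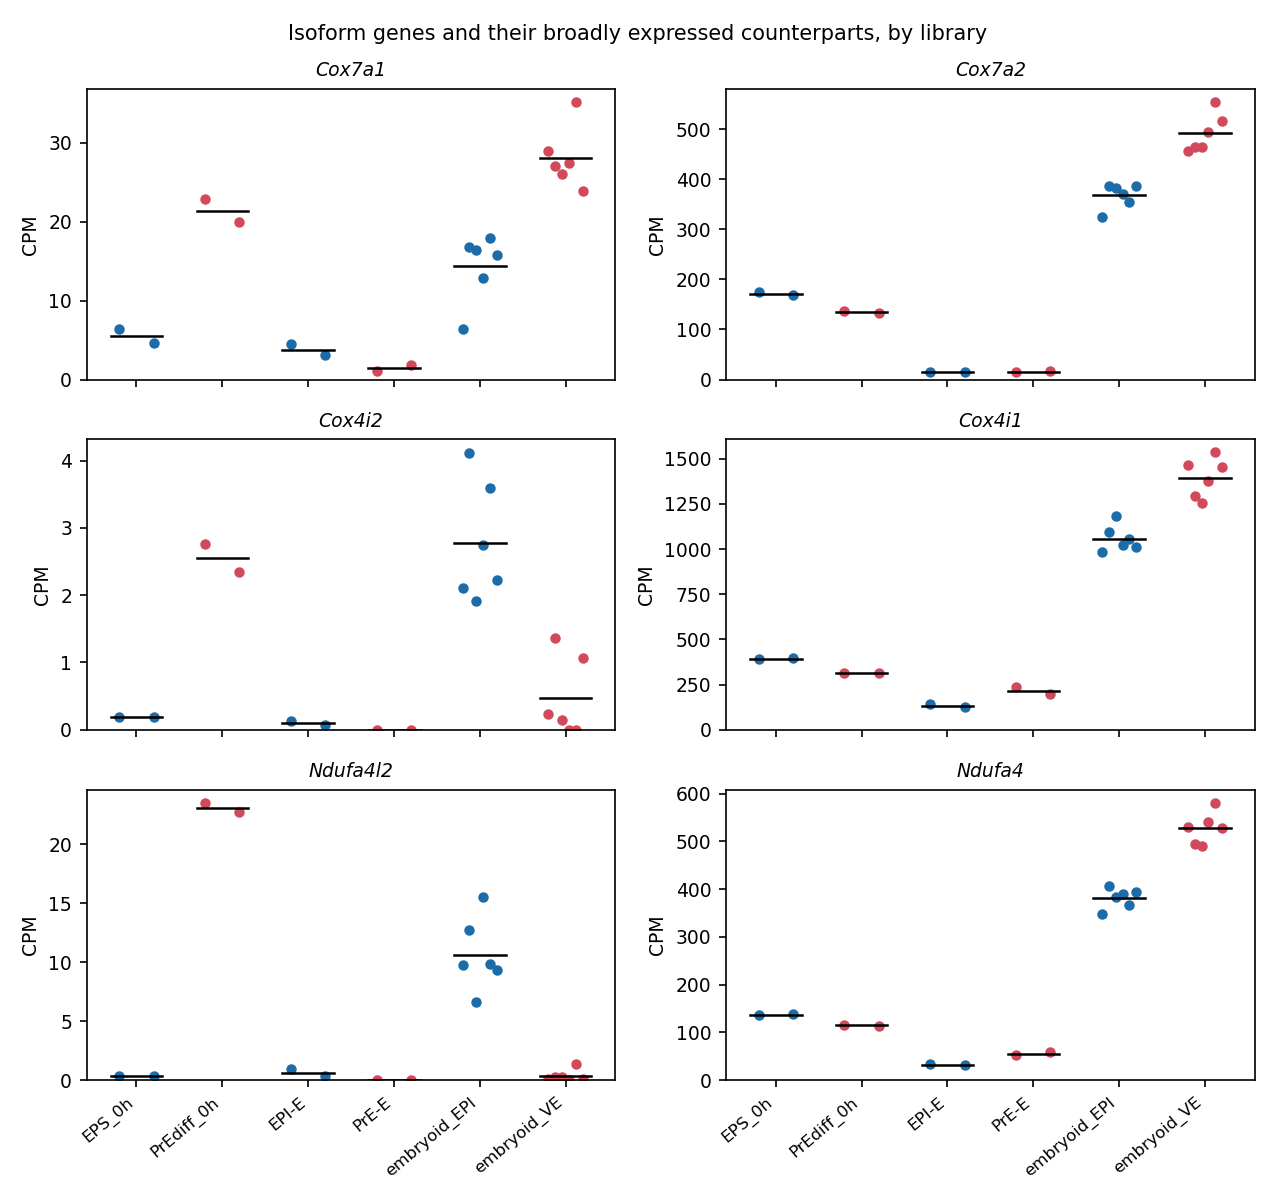
CPM in each library (points; bars are group means) of 3 isoform genes (left) and their broadly expressed counterparts (right) in EPS and PrEdiff at 0 h, sorted EPI-E and PrE-E, and embryoid EPI and VE. Ndufa4l2 stands at 23.4 and 22.7 CPM in PrEdiff, and at no more than 1.36 CPM in VE or 0.380 CPM in EPS.

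Among the other lists, 9 of 12 tested subunits encoded by mitochondrial DNA rose in VE and none fell (median 1.09), and 13 of 18 glycolysis genes fell and 5 rose (median -0.68). The direction of the nuclear set and of glycolysis was therefore the reverse of that in PrEdiff against EPS. Read across the 3 comparisons, 34 of the 76 members tested in all 3 fell in PrEdiff and rose in both PrE-E and VE, a pattern held by 571 of the 10691 genes tested in all 3 (5.34%). The 4 members that rose in all 3 were Ndufa8, Ndufb11, Ndufv3 and Uqcrc2, where 15.6% of those genes did, and Cox7c and Ndufb11b fell in all 3, where 16.7% did. The reference differs between them, being undifferentiated EPSCs in the first and epiblast-like cells of the same culture or embryoid in the others, and the difference between the comparisons was not tested.

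**Figure D3:**
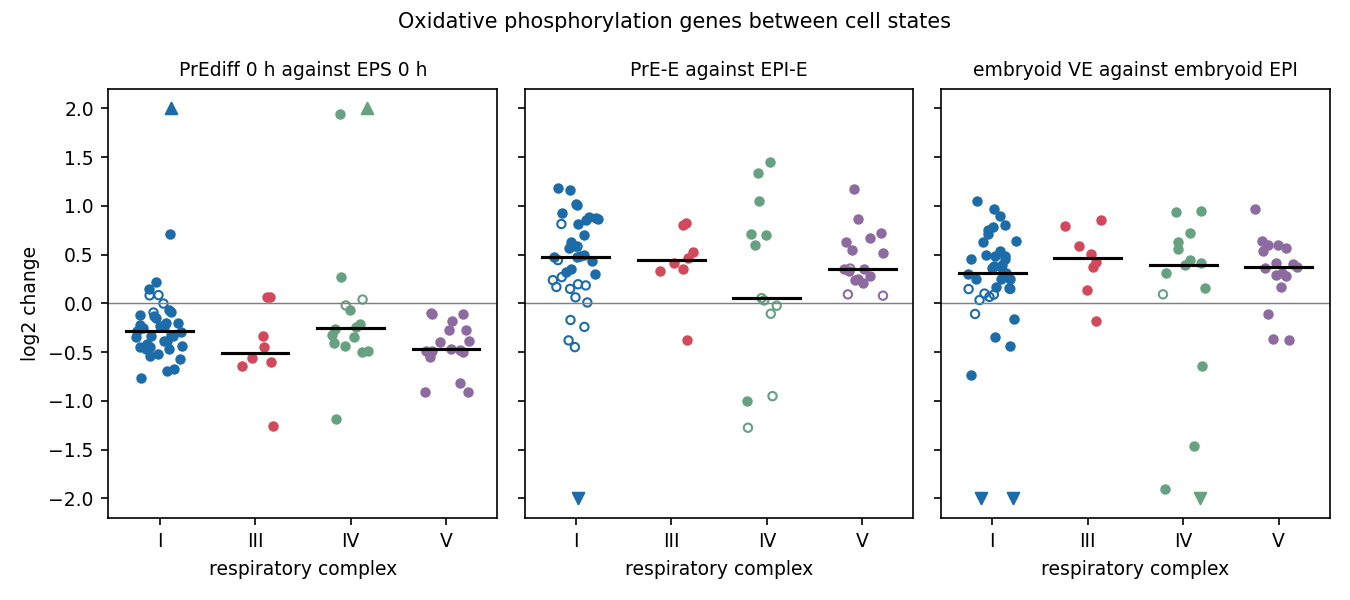
Log2 change of each member (points) by respiratory complex in 3 comparisons; filled points passed an adjusted p of 0.05, bars are medians, and triangles lie beyond 2 in either direction. With TMM scaling all 17 complex V genes lie below 0 in PrEdiff against EPS (with library totals Atp5mpl, Atp5c1, Atp5pb and Atp5g2 lie above it), and 14 of 17 are called higher in each of the other comparisons.

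Loss of Virma asks what the m6A writer means for these genes in induced cells. Of 77 members tested, 28 fell and none rose in Virma cKO, where 33.2% of all tested genes were called (18.0% lower, 15.1% higher). The median log2 change was -0.28, against 0.02 over all tested genes. Complex V had the largest share of genes called lower, at 11 of 17 (median -0.35). Whether its changes were larger than those of the other complexes was not tested. Without Virma WT replicate 1, 18 members fell. Complex III had 4 of 8 lower, complex IV 5 of 14 and complex I 8 of 38.

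Atp5a1, the alpha subunit of the catalytic head, stood at 879 and 908 CPM in WT and at 544 and 545 CPM in cKO (-0.71 ± 0.06, adjusted p = 2.94e-11 by edgeR). Atp5c1, the gamma subunit of the rotating shaft, stood at 198 and 174 against 122 and 111 CPM (-0.67 ± 0.09), and Atp5pb, of the outer stalk, at 202 and 209 against 140 and 131 CPM (-0.60 ± 0.09). Atp5b stood at 490 and 516 against 412 and 374 CPM (-0.35 ± 0.07). The groups were separate for each of these complex V genes, which adds little for genes named by a small adjusted p. Cox7b, a small subunit of complex IV, stood at 343 and 352 against 237 and 238 CPM (-0.54 ± 0.07), Uqcrc1 at 343 and 352 against 237 and 254 CPM (-0.49 ± 0.07), and Ndufv1 at 65.6 and 62.2 against 42.0 and 43.8 CPM (-0.57 ± 0.14). No cKO library reached a WT library for these 3 genes either.

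This direction depended on what the libraries were scaled to. With library totals, 13 members fell and 2 rose, with a median of -0.10 against 0.20 over all tested genes. Scaled to ribosomal protein genes, of which 74 of 84 fell in the main comparison (median -0.42), 15 members rose and 2 fell, with a median of 0.12 against 0.42 over all tested genes. The members' median thus lay below that of all genes in each case, while its sign, and that of Atp5b (0.06), changed. Atp5pb, Cox7b, Uqcrc1 and Ndufv1 no longer passed the test with ribosomal protein scaling. Cell type markers moved as well: primitive endoderm markers fell (6 of 6) from 0.133 and 0.128 to 0.0143 and 0.0162% of counts, and fibroblast markers rose (10 of 10) from 0.0930 and 0.0914 to 0.260 and 0.252%. Their part in the change of the set was not tested. Glycolysis genes fell too, 12 of 18 with 2 higher (median -0.52).

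Between the libraries labelled Mettl3 cKO and WT, edgeR called none of 76 members, with 3.95% of all tested genes called (2.51% higher, 1.44% lower). At an unadjusted p of 0.05 there were 6 members, a count not compared with all genes, and DESeq2 called 0. The median was 0.02, and single members ran from -0.22 to 0.41. Atp5a1, for example, stood at 1151 and 1151 CPM in WT and at 1089 and 1130 CPM in the libraries labelled cKO. Fibroblast markers were higher in the latter, at 0.348 and 0.363% against 0.252 and 0.238% of counts, and 5 of 6 primitive endoderm markers fell.

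Between siIgf2bp3 and siNC, 17 of 78 members lay under an unadjusted p of 0.05, a count not compared with all genes. After adjustment 1 member was called, with 7.29% of all tested genes called (2.79% higher, 4.50% lower). It was Cox7b, at 62.8 and 73.2 CPM in siNC and 100.5 and 102 CPM in the libraries labelled siIgf2bp3 (0.58 ± 0.11, adjusted p = 0.0157). The 2 groups did not overlap, but without siIgf2bp3 replicate 1 the adjusted p was 0.147, and without replicate 2 it was 0.170. The count itself moved with single control libraries. Without siNC replicate 1 more of all tested genes were called as well, so that move was not particular to the set. The largest move came without siNC replicate 2, and it is not set beside all genes here. Chi-square per degree of freedom was 9.229 between the siNC libraries and 1.992 between the siIgf2bp3 libraries. The members' median ran from -0.0516 to 0.0047 as each library was left out. Of 9 tested subunits encoded by mitochondrial DNA, 6 rose and none fell (median 0.84), beside a median of -0.04 for the nuclear set. Primitive endoderm markers fell here as well (6 of 6).

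A single fit over the 12 perturbed libraries tested the differences between responses. The Virma response was lower than the response to the Mettl3 label in 30 of 78 members and higher in none, with 21.7% of all tested genes called, 15.5% lower and 6.15% higher (median -0.42), and lower than the siIgf2bp3 response in 37 and higher in none, with 30.6% called, 20.6% lower and 10.1% higher (median -0.42). Complex V held 12 of 17 of the lower genes in both. Atp5a1 differed by -0.76 ± 0.09 and -0.70 ± 0.09, and Atp5c1 and Atp5pb by -0.79 ± 0.14 and -0.73 ± 0.12 from the Mettl3 label. Cox7b was lower by -0.65 ± 0.12 and -1.24 ± 0.12, and it was the 1 member that separated the Mettl3 label from siIgf2bp3 (-0.59 ± 0.13, adjusted p = 0.0201, with 1.11% of genes called and 0.450% lower). That call was lost when any library of these 2 tables other than siNC replicate 2 was left out (adjusted p = 0.0517 to 0.164), and without siNC replicate 2, 9 members were called. The count of 30 against the Mettl3 label was 17 and 19 without Mettl3 cKO replicates 2 and 1, and 18 without Mettl3 WT replicate 2. As in the Virma comparison, the scaling set the direction: with ribosomal protein scaling the members' medians were 0.14 and 0.09, while those of all tested genes moved from -0.08 and -0.08 to 0.46 and 0.41. Table and perturbation coincide, so the table cannot be told apart from the perturbation.

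**Figure D4:**
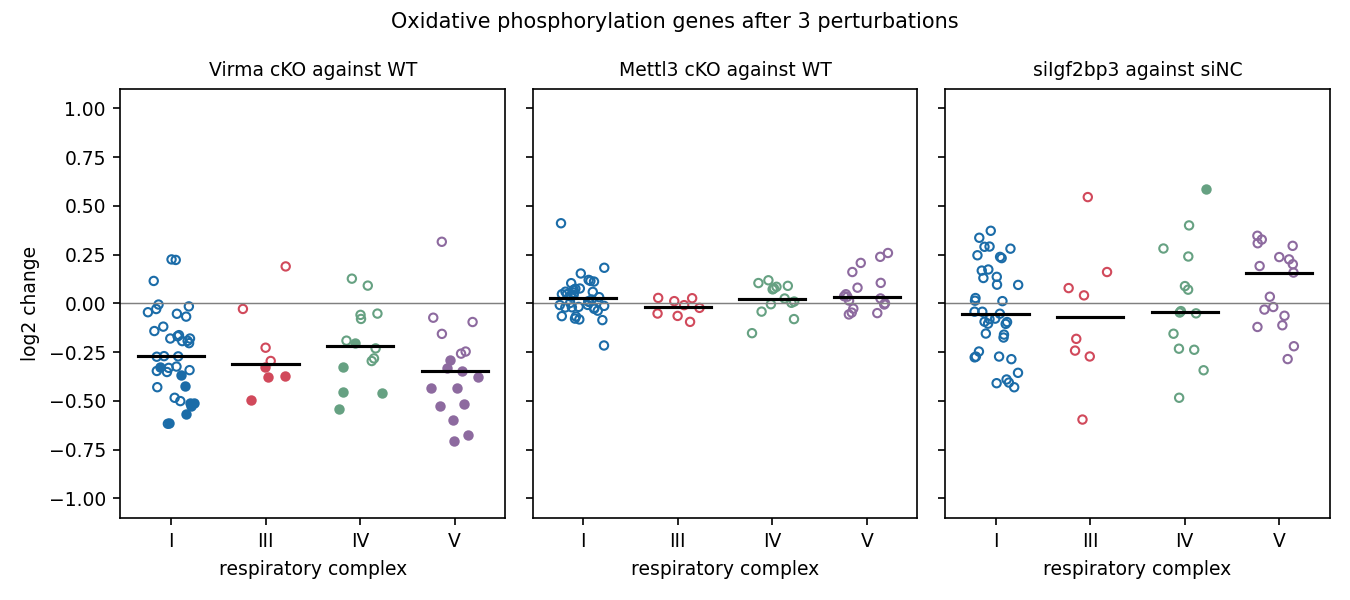
Log2 change of each member (points) by respiratory complex after 3 perturbations of induced cells; filled points passed an adjusted p of 0.05 and bars are medians. In Virma cKO, 11 of 17 complex V genes are called lower, and of the other 2 comparisons only siIgf2bp3 has a called member, Cox7b.

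The transcripts of these genes are short. The 76 members with a matched transcript had a median length of 735.5 bases, against 2961.5 over all tested genes, and a median 3′ UTR of 155 against 930 bases. GGACT, a common form of the m6A consensus, occurred at a median of 1.08 per kb in members and 1.06 in all tested genes. No GGACT at all was found in 34.2% of the members, against 8.2% of tested genes. In complex I it was 48.6% (median density 0.59 per kb), and in complex V 13.3% (1.37), with median lengths of 875 and 809 bases. These letters count possible sites and say nothing of whether they carry m6A.

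Under actinomycin D, RNA made before the block is followed as it decays. Counts are relative within a library, so a positive slope means that a transcript was lost more slowly than the average transcript, not that it increased. All 80 members had a positive slope in both states. In EPS 13 passed the test, with 36.7% of all tested genes called (18.2% higher), and the median slope was 0.24 log2 units per hour against 0.05 over all tested genes. In PrEdiff 66 passed, with 36.9% of genes called (20.3% higher), and the median was 0.35 against 0.02. None fell in either state. The difference in slope between states was called for no member by edgeR, with 1.27% of genes called and 1 member at an unadjusted p of 0.05, and DESeq2 called 0. Counts moved with single libraries: in EPS they were 4 without either 0 h library, 20 without 1 h replicate 1, and 60 and 54 without 3 h replicates 1 and 2, and in PrEdiff 18 and 16 without 0 h replicates 1 and 2.

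The low count in EPS came with a course that was not a line. Departure from a line enters the SE of a slope. Cox4i1 had an SE of 0.13 per hour for its EPS slope, and of 0.02 for its EPS change from 2 to 3 h. Slope calls, and calls of slope differences, therefore depend on the shape of the course as well as on its steepness. Median changes since 0 h in EPS were 0.96 at 1 h, 1.34 at 2 h and 0.66 at 3 h, and in PrEdiff 0.56, 1.05 and 1.00, computed as log2 of CPM plus 1. The complexes moved as one in EPS, at 1.28 to 1.34 at 2 h and 0.62 to 0.71 at 3 h. Cytosolic ribosomal protein genes, whose mRNAs are known to be stable, took the same course (0.98, 1.33 and 0.67 in EPS, and 0.61, 1.11 and 1.13 in PrEdiff). Subunits encoded by mitochondrial DNA went down, to -0.57 in EPS and -0.41 in PrEdiff at 3 h, and glycolysis genes reached 0.60 and 0.73.

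**Figure D5:**
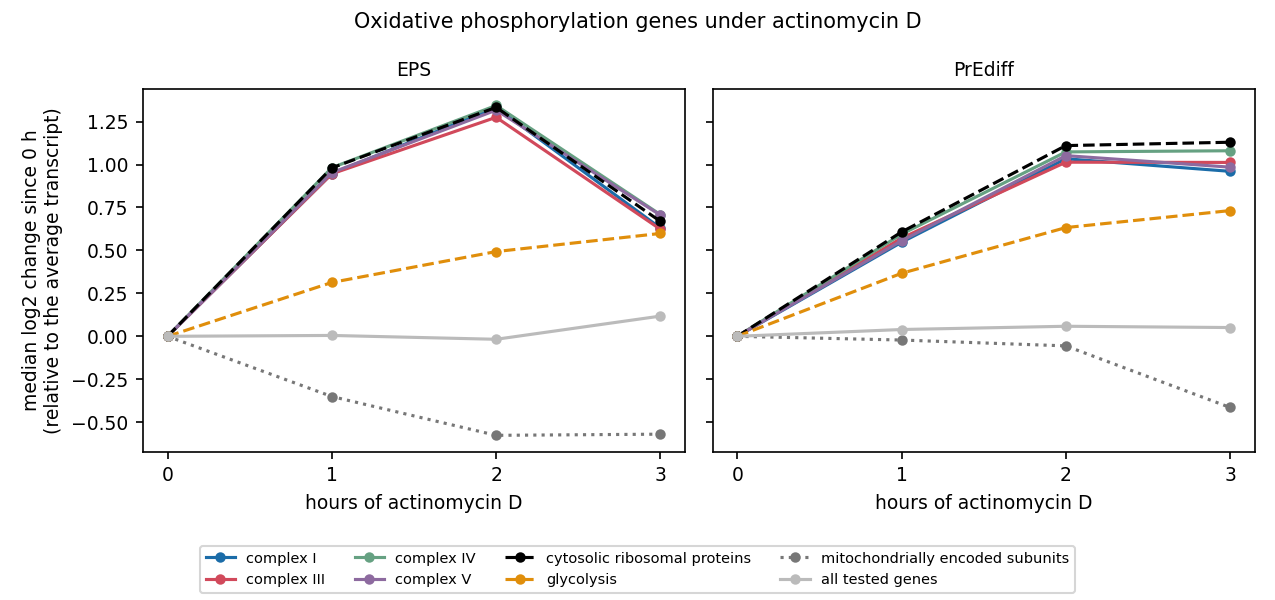
Median log2 change since 0 h (log2 of CPM plus 1, relative to the average transcript) against hours of actinomycin D in EPS and PrEdiff, for members by complex and 4 other lists. The complexes reach 1.28 to 1.34 at 2 h in EPS and drop to 0.62 to 0.71 at 3 h, as the ribosomal protein genes do, while in PrEdiff they stay near 1.

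Between 2 and 3 h in EPS, a comparison added after the course was seen, 73 of 80 members fell and 2 rose, with 66.1% of all tested genes called (31.6% lower, 34.5% higher). The median was -0.64, against 0.01 over all tested genes. Cox4i1 stood at 1044 and 1029 CPM at 2 h and at 636 and 635 CPM at 3 h (-0.71 ± 0.02). Uqcrq went from 317 and 323 to 165 and 170 CPM (-0.94 ± 0.03), and Atp5d, the delta subunit of the ATP synthase, from 490 and 488 to 283 and 278 CPM (-0.81 ± 0.02). Other genes with a transcript of up to 1000 bases did likewise, 538 of 737 lower with a median of -0.62, as did 82 of 85 ribosomal protein genes. Scaled to ribosomal protein genes, 27 members rose and 25 fell, with a median of 0.01 against 0.62 over all tested genes. Both 3 h libraries of EPS moved this way, and whether transcript length, the library or decay set it was not tested.

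The 2 exceptions were Ndufs1 and Uqcrc2. Ndufs1 stood at 161 and 164 CPM at 2 h and at 266 and 270 CPM at 3 h in EPS (0.72 ± 0.03), after 162 and 157 CPM at 0 h and 157 and 152 CPM at 1 h. In PrEdiff it stood at 131 and 135 CPM at 2 h and at 160 and 162 CPM at 3 h (0.28 ± 0.03). Its jump at 3 h was thus seen in both states and was larger in EPS, a difference that was not tested. Uqcrc2, the second core protein of complex III, went from 292 and 292 to 313 and 306 CPM (0.08 ± 0.02), and with RLE factors its change was -0.02 and did not pass the test. Without EPS 3 h replicate 1 its adjusted p was 0.0700. In PrEdiff, 33 members fell and 10 rose between 2 and 3 h, with 39.4% of genes called (median -0.04). Atp5b rose, from 2420 and 2447 to 2658 and 2700 CPM (0.14 ± 0.02). Atp5g3 fell, from 518 and 558 to 465 and 468 CPM (-0.21 ± 0.02), as did Ndufa11, a membrane-arm subunit of complex I, from 61.9 and 66.9 to 53.9 and 51.6 CPM (-0.29 ± 0.05).

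By role, slopes differed little between complexes, with medians of 0.23, 0.24, 0.27 and 0.24 in EPS and 0.34, 0.35, 0.37 and 0.36 in PrEdiff for complexes I, III, IV and V. All 17 complex V genes passed the test in PrEdiff. Atp5b, at 1793 and 1781 CPM at 0 h, 2654 and 2655 at 1 h, 3070 and 3029 at 2 h and 2976 and 2995 at 3 h in EPS, had slopes of 0.24 ± 0.05 in EPS and 0.29 ± 0.05 in PrEdiff. Uqcrc2 had the smallest adjusted p in EPS (0.20 ± 0.03, adjusted p = 1.07e-04) and a slope of 0.22 ± 0.03 in PrEdiff. Cox8a and Cox7a1, both small complex IV subunits, had steep slopes in PrEdiff, at 0.44 ± 0.11 and 0.46 ± 0.12. Cox7a1 went there from 22.9 and 19.9 CPM at 0 h to 53.6 and 58.0 CPM at 3 h. Without PrEdiff 0 h replicate 2 its adjusted p was 0.0586. Ndufa1, a small complex I subunit, had a slope of 0.32 ± 0.11 in EPS, and without EPS 0 h replicate 1 or 2 its adjusted p was 0.180 and 0.179.

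At the low end stood Uqcrfs1 in both states and Ndufs1 in PrEdiff. Among members with a mean of at least 10 CPM, Ndufa4l2 lay lower still in EPS (0.00 ± 0.07), with 3 to 9 counts a library. In PrEdiff the slope of Ndufa4l2 was 0.42 ± 0.05 (edgeR adjusted p = 2.853e-05). Its difference between states, 0.42 ± 0.13, did not pass the test (edgeR adjusted p = 0.268). Uqcrfs1 had slopes of 0.07 ± 0.07 in EPS and 0.15 ± 0.07 in PrEdiff, neither past the test (adjusted p = 0.482 and 0.101). It went from 147 and 147 CPM at 0 h to 227 and 236 CPM at 2 h and 168 and 166 CPM at 3 h in EPS. Ndufs1 had 0.24 ± 0.05 in EPS (adjusted p = 0.00209), carried by its 3 h libraries, without which the slope was 0.01, and 0.08 ± 0.05 in PrEdiff (adjusted p = 0.229). It was the member with the largest negative difference between states (-0.15 ± 0.07, adjusted p = 0.432). Across the 76 members with a transcript, slope and transcript length had a Spearman correlation of -0.412 in EPS and -0.361 in PrEdiff, against -0.171 and -0.446 over all tested genes. The genes share libraries and are not independent, so these are descriptions.

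Whether the set was more stable in one state hung on the EPS libraries at 3 h. Over all times the members' median difference was 0.11 (PrEdiff minus EPS) with none called. Over 0 to 2 h it was -0.21, with 11 members lower and none higher, beside 532 lower and 394 higher among all tested genes. With only the EPS 3 h libraries left out it was -0.31, with 56 members lower and none higher, beside 1278 lower and 2862 higher among all. That fit sets EPS slopes over 0 to 2 h (median 0.67) against PrEdiff slopes over 0 to 3 h (median 0.35). Its time spans are unequal, so it does not compare the states like for like. At 3 h against 0 h alone, 69 members were higher and 1 lower, beside 3232 higher and 3039 lower among all. In EPS itself, 76 members had a higher slope over 0 to 2 h and none a lower one, with a median of 0.71, beside 4969 higher and 4472 lower among all. Scaled to ribosomal protein genes, the median slopes were 0.00 in EPS and -0.03 in PrEdiff, with 2 and 11 members lower and none higher, while the medians of all tested genes moved to -0.17 and -0.35. With library totals 3 and 25 members passed the test.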

How the data were processed

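RNA was extracted with TRIzol and sequenced on an Illumina NovaSeq, per the labels' protocols. They name a SMARTer stranded total RNA kit and a VAHTS kit, without saying which made which library. The values are read counts per gene as deposited by the authors. FastQC 0.12.1, Trim Galore, STAR 2.7.11b, Subread, DESeq2 and build mm39 are named in the submitters' processing notes. Neither the gene annotation nor the use of strand in counting is given in the sources used here, so overlapping, antisense and near-identical genes are uncertain.

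Each of the 7 tables was normalized and tested on its own. Genes were filtered with filterByExpr (minimum count 10, total 15), scaled with TMM and tested with edgeR 4.0.16 (R 4.3.3, limma 3.58.1) by the robust quasi-likelihood test, with Benjamini-Hochberg adjustment over all tested genes at 0.05 and a prior count of 2. Values after ± are standard errors of log2 changes. The 16 actinomycin D libraries entered 1 fit with a mean per state and time, and a second with an intercept and slope per state. Response differences came from 1 fit over the 3 perturbation tables. Time courses used log2 CPM with a pseudocount of 1. Of the EPSC table, symbols that occur more than once (19, with Atp5o) were left out. Column names of the Virma table carry the word input. The scripts were tested on simulated data.

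Transcript lengths and motifs came from GENCODE transcript models matched by symbol and promoters from the RefSeq table, both on GRCm38.p6 and not on the build of the counts. Named genes were fixed core, c-ring and isoform genes, and up to 4 members with the smallest adjusted p in each direction with a mean of at least 10 CPM. For slopes, some of the 3 lowest and 3 highest were also named. Other genes were chosen after their values were seen. For genes named by a small adjusted p, groups that do not overlap follow largely from that choice and are no further support. The members and lists were chosen with earlier results of these data known. Alternatives were RLE factors, library totals, ribosomal protein scaling, DESeq2 1.42.0, other filters, the replicate block, fewer times and leaving out each library.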

Additional observations from a re-analysis of the deposited data

Results flagged for a closer look

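Within the embryoid groups of 6, 5 of 50 sets of 6 values held a library apart from the other 5 by Dixon's criterion, where chance gives about 1 in 20. VE replicate 2 was low for Atp5g3 (231.164 CPM, the nearest library at 254.853) and for Ndufv1 (150.599 CPM, the nearest at 167.575). VE replicate 5 was high for Cox7c (404.197 CPM, the nearest at 343.955) and for Ndufa4l2 (1.35637 CPM, the nearest at 0.28145). EPI replicate 5 was low for Atp5b (2537 CPM, the nearest at 2708.34).

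Responses to the perturbations differed by the test of the difference itself. Between Virma cKO and the Mettl3 label 30 members differed, between Virma cKO and siIgf2bp3 37, and between the Mettl3 label and siIgf2bp3 1 (Cox7b). Of all tested genes, 21.7, 30.6 and 1.11% were called in the same order. Table and perturbation coincide here and cannot be told apart.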

How the results depend on the processing

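The comparisons of PrEdiff with EPS, PrE-E with EPI-E and VE with EPI kept their counts of called members within 1.5 times under every alternative run. Scaling by library totals or ribosomal protein genes moved the counts for Virma, siIgf2bp3, the slopes in each state and the Virma differences. It did not move those for Mettl3, the slope difference, Mettl3 minus siIgf2bp3 or 3 h against 2 h. These counts pool both directions. In EPS at 3 h against 2 h nearly all calls were lower with TMM, and ribosomal protein scaling split them between higher and lower. In PrEdiff against EPS, library totals gave 19 higher and 49 lower, against 9 and 65 with TMM. With library totals the calls numbered 15 for Virma, 4 for siIgf2bp3, 3 and 25 for slopes in EPS and PrEdiff, and 5 and 16 for Virma against Mettl3 and against siIgf2bp3. In PrEdiff Atp5g2 then stood at 0.0021, Atp5mpl at 0.079, Atp5c1 at 0.0708 and Atp5pb at 0.0693, and the slopes of Uqcrfs1 in EPS and Ndufs1 in PrEdiff at -0.0434 and -0.0597. With ribosomal protein scaling the same calls numbered 17, 4, 2 and 11, and 6 and 18. The members' medians reversed to 0.1225 for Virma, -0.023 for Mettl3, -0.0032 and -0.0267 for slopes in EPS and PrEdiff, -0.0325 for their difference, 0.0069 for EPS at 3 h against 2 h, and 0.1357, 0.0852 and -0.0229 for Virma minus Mettl3, Virma minus siIgf2bp3 and Mettl3 minus siIgf2bp3. In PrEdiff Atp5mpl, Atp5c1 and Atp5pb went to 0.0131, 0.0048 and 0.0034, Atp5b went to 0.0583 in Virma cKO, and slopes to -0.0352 (Uqcrc2) and -0.1699 (Uqcrfs1) in EPS, and to -0.2894 (Ndufs1), -0.2254 (Uqcrfs1), -0.1617 (Uqcrc2) and -0.0918 (Atp5b) in PrEdiff. The cause was not tested.

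DESeq2 called 32 slopes in EPS, 3 members for siIgf2bp3 and 2 for Mettl3 minus siIgf2bp3. RLE factors and the filter of 1 CPM gave 4 each for siIgf2bp3, and no filter gave 8 and, for Mettl3 minus siIgf2bp3, 3. Uqcrc2 at 3 h against 2 h went to -0.0195 with RLE factors and -0.0194 with DESeq2. Over 0 to 2 h, slopes called in EPS numbered 76, and differences 11 with a median of -0.2086, while Ndufs1 in PrEdiff had -0.0307. At 3 h against 0 h these counts were 77 and 70. Chosen after seeing the data, 2 h against 0 h gave 76 and 65 (median -0.1327), and leaving out the EPS 3 h libraries gave 76 and 56 (median -0.3101, Ndufs1 0.07). The latter sets EPS slopes over 0 to 2 h against PrEdiff slopes over 0 to 3 h.

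Leaving out each library in turn gave 68 to 75 calls for PrEdiff, 43 to 46 for PrE-E, 68 to 73 for VE, 18 to 25 for Virma, 0 to 0 for Mettl3 and 0 to 41 for siIgf2bp3. Slopes gave 4 to 60 in EPS, 16 to 71 in PrEdiff and 0 to 0 for the difference, and 3 h against 2 h gave 72 to 75 in EPS and 30 to 43 in PrEdiff. Differences of responses gave 17 to 38, 28 to 41 and 0 to 9, in the order above. The members' medians changed sign for Mettl3 (-0.0099 to 0.0367, negative without cKO replicate 2), siIgf2bp3 (-0.0516 to 0.0047, positive without siNC replicate 1), the slope difference (-0.0121 to 0.2173, negative without either EPS 3 h library) and Mettl3 minus siIgf2bp3 (-0.021 to 0.0462, negative without Mettl3 WT replicate 2, Mettl3 cKO replicate 2, either siNC library or siIgf2bp3 replicate 1).

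Same-numbered libraries did not deviate together, with correlations from -0.129 to 0.034, so the numbers were not taken to pair them. Only replicate 6 of the embryoids correlated best with its own number. With the replicate block, siIgf2bp3 had 6 calls and Mettl3 minus siIgf2bp3 0. In the other comparisons the block kept the count within 1.5 times. A crossed block for Mettl3, added after seeing the data, gave 3 calls. With 2 libraries a group, p-values rest on spread shared across genes, and Cox8c, Cox7b2 and Cox4i2 are limited by depth.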
